A study of Mus musculus with 4 samples.

Results

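The Galnt18 locus on mouse chromosome 7 was described by its H3K27ac HiChIP contacts in cortical interneurons that express vasoactive intestinal peptide (VIP), set against interneurons that express somatostatin (SST). HiChIP joins DNA ends that lie close together in the nucleus and keeps those pairs whose chromatin carries a chosen mark, here the acetylated histone H3K27ac of active promoters and enhancers. A contact belonged to the locus when at least 1 of its paired anchors overlapped chromosome 7 from 118000000 to 119100000 (build mm9) by 1 bp. In the VIP list 60 of 6733 interactions met this rule, and in the SST list 0 of 8278 did. The region was chosen by its counts in these lists, high in VIP and 0 in SST, so these counts are a description and carry no test.

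VIP nuclei came from the cortex of adult mice carrying Vip-cre and the Sun1 nuclear tag, and SST nuclei from mice carrying Sst-cre and Sun1, both on a C57BL/6 background and both precipitated with the same antibody to H3K27ac. The tag is switched on by Cre, so each group is the set of nuclei in which its driver has been active. The labels describe 4 samples, 2 per cell type, and a single list of interactions for VIP and another for SST were analysed. There is therefore no spread between animals behind any value, and intervals are exact 95% intervals that cover counting error alone. The lists give positions without read counts, so depth is unknown, and whether an unlisted contact was absent or below detection cannot be told. Markers of the cell types were not checked, since no mm9 annotation was used here.

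Galnt18, called Galntl4 in mm9, encodes a member of the family of polypeptide N-acetylgalactosaminyltransferases. These enzymes begin mucin-type O-glycosylation by placing N-acetylgalactosamine on serine or threonine residues of proteins that pass through the secretory pathway. VIP interneurons arise from the caudal ganglionic eminence and are known for inhibiting other inhibitory neurons, among them SST interneurons, which arise from the medial ganglionic eminence. Distal enhancers are commonly acetylated in the cell types that use them, and contacts between acetylated sites are one way to list which distal sites lie near which promoters. RNA was not measured in these samples, so the level of Galnt18 in either cell type is not known from them.

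The gene lies near 118600000 to 118930000 in mm9, a span of about 330 kb that is known here only roughly, so an anchor near its ends cannot be placed inside or outside the gene with certainty. In the RefSeq gene order of GRCm38.p6, from which no coordinate is taken, the nearest protein-coding genes on the low-coordinate side are Eif4g2, Ctr9, Mrvi1, Lyve1 and Rnf141. On the high-coordinate side they are Usp47, Dkk3, Mical2, Micalcl and Parva. Between Galnt18 and Eif4g2 that table places 3 long noncoding RNA genes and 1 pseudogene, and between Galnt18 and Usp47 it places 1 long noncoding RNA gene and 2 pseudogenes among its other entries.

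VIP nuclei had a dense set of listed contacts across Galnt18 and the stretch on its low-coordinate side, while SST nuclei had no listed contact anywhere in the region. The VIP count of 60 (Poisson interval 45.8 to 77.2) was 8.91 interactions per 1000 of the list, and it was 14.1% (10.9 to 17.8%) of the 426 VIP interactions of chromosome 7. SST had 447 interactions on chromosome 7 and 0 at the locus. For this 0 an approximate floor of 3 interactions was taken, or 0.362 per 1000 of its list. Per 1000 interactions the VIP value was 24.6-fold this floor of 3 counts over the SST list, a ratio whose size follows from the choice of the region by these counts. Interactions share anchors and are not independent, which these intervals do not take into account.

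**Figure D1:**
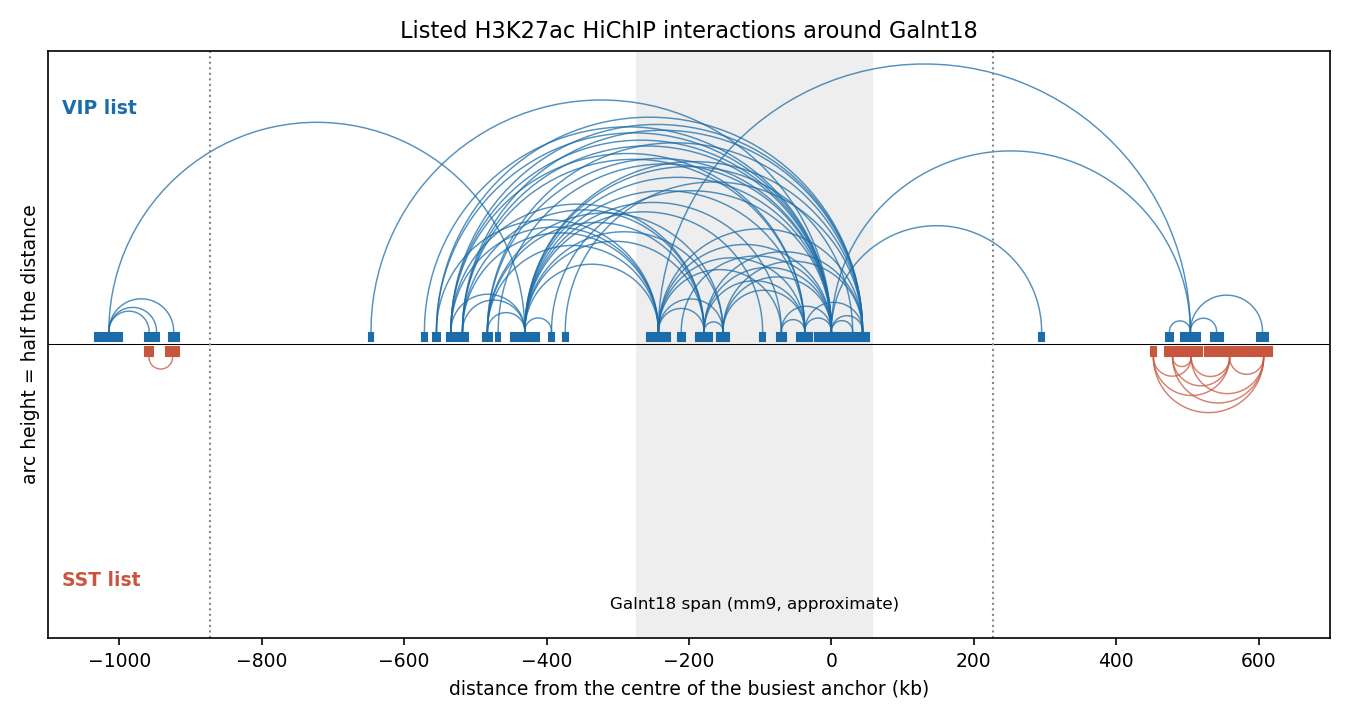
Arcs join the paired anchors of each listed interaction, VIP above the line and SST below it, plotted by distance in kb from the centre of the busiest VIP anchor; blocks are anchors, grey marks the approximate Galnt18 span, dotted lines mark the edges of the region, and interactions that reach past the edges of the plot are not drawn. The 60 VIP interactions of the locus fill the space between the dotted lines and a few cross them, and the SST list has 0 there.

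The 60 interactions joined 23 anchors, of which 20 lay in the region and 3 outside it. Both anchors lay inside for 56 interactions, and 4 left the region. The 20 anchors were split evenly by the gene: 10 lay on the low side of the span, named L1 to L10 here in order of position, and 10 overlapped the span, named G1 to G10. No VIP anchor lay in the region beyond the span on the high side, where the next one came 239 kb after the end of G10. The widest stretch without a VIP anchor inside the cluster, 111 kb, separated L10 from G1 and so set the low-side group apart from the gene.

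G8, at 118849629 to 118895993 inside the Galnt18 span, was the busiest anchor with 19 interactions. L8, at 118422671 to 118461950 on the low side, followed with 14. These hub anchors lay 430.5 kb apart between their midpoints and were linked to each other. G1, at 118613466 to 118646529 near the low end of the gene span, had 12 interactions, and G10, at 118907847 to 118925578 near its high end, had 11. In the whole VIP list 20 of 4850 anchors had as many interactions as G8, itself included, and 71 had as many as L8.

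The other busy anchors had 6 to 9 interactions. Inside the gene span, G3 at 118683292 to 118704959 and G7 at 118825019 to 118846036 had 9 each, and G4 at 118712639 to 118728651 had 7. On the low side, L4 at 118332362 to 118344661, L5 at 118347329 to 118362213 and L6 at 118383818 to 118395742 had 6 each. Thus 10 of the 20 anchors had 5 or more interactions, against 16.8% of anchors over the whole VIP list, and the choice of the region by its VIP count bears on this contrast. At the quiet end, L1, L2, L7, L10, G2 and G5 had 1 interaction each. L1, at 118223169 to 118229432, was the lowest anchor of the region and G10 the highest.

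Many contacts touched the 2 hubs, though L8 with 14 interactions stood little above G1 with 12 and G10 with 11. G8 was linked to 17 of the 19 other anchors of the region and L8 to 13 of them. Of the 60 interactions, 32 (53.3%) touched G8 or L8 and 28 touched neither. The hubs had 11 partners in common, G8 had 7 further partners and L8 had 2. Of the 6 anchors with a single interaction, L1, L2, L7 and G2 were linked to G8, and G5 was linked to L8. L10 was linked to G10 and was the only anchor of the region with a link to neither hub.

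Wider anchors had more interactions. Across the 20 anchors, width and number of interactions had a Spearman correlation of 0.92, against 0.63 across the 4850 anchors of the VIP list. These are descriptions across anchors of 1 list, which are not replicates, and the part of width in the number of interactions was not tested. The 10 busy anchors had a median width of 19.4 kb (11.9 to 46.4 kb), and the other 10 had 7.03 kb (6.26 to 13.6 kb). Per 10 kb of width the busy anchors had a median of 4.22 interactions (3.56 to 6.20) and the others 1.59 (0.963 to 3.31). The groups were split by number of interactions, which enters this ratio, so nothing is read from that contrast. Among the anchors G10, with 6.20 interactions per 10 kb, was highest, and G8 stood at 4.10 and L8 at 3.56.

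**Figure D2:**
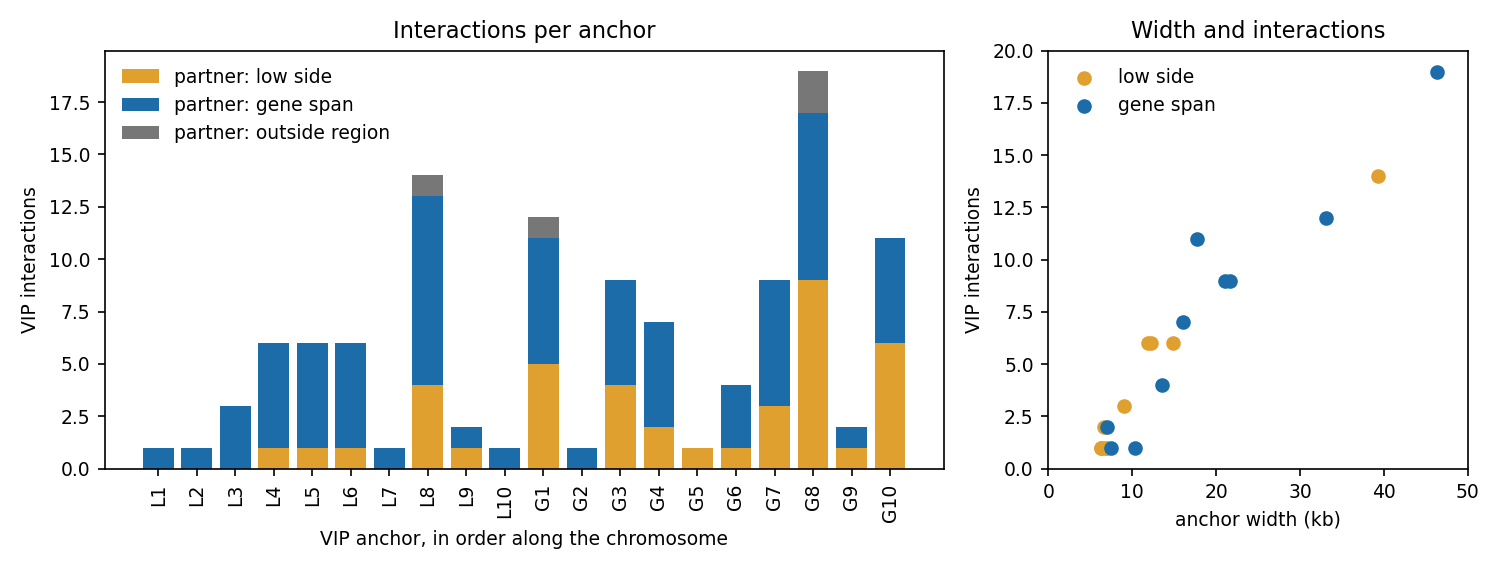
Left, the number of VIP interactions of each of the 20 anchors in order along the chromosome, stacked by where the partner lies; right, anchor width in kb against number of interactions, coloured by the side on which the anchor lies. L8 with 14 and G8 with 19 interactions stand highest, and L4, L5 and L6 each have 1 of their 6 partners on the low side.

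Most contacts tied the low side to the gene or joined sites within the gene, and few joined low-side sites to each other. Low-side anchors were linked to gene-span anchors in 32 of 100 possible pairs (32%, interval 23.0 to 42.1%). Within the gene span 20 of 45 pairs were linked (44.4%, 29.6 to 60%). Within the low side 4 of 45 pairs were linked (8.89%, 2.48 to 21.2%), and each of these 4 included L8. The pairs are formed from the same anchors and are not independent, which the intervals do not take into account. With the 2 hubs set aside, 15 of 81 pairs between the sides (18.5%), 12 of 36 pairs within the gene span (33.3%) and 0 of 36 pairs within the low side were linked.

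The distances of these pairs are given by class, and the part of distance or of anchor width in the shares was not tested. Unlinked pairs within the low side had a median distance of 91.9 kb (15.2 to 273 kb). Linked pairs between the low side and the gene span had a median distance of 424 kb (188 to 647 kb), and unlinked ones 403 kb (131 to 690 kb). Linked pairs within the gene span had a median of 128 kb (26.5 to 287 kb), and unlinked ones 109 kb (13.9 to 273 kb). The low-side anchors had listed contacts with the gene at 188 to 647 kb and few with each other at shorter range.

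L4, L5 and L6 show this pattern most fully. L4 and L5 lie 2.67 kb apart and had the same 6 partners, namely L8, G1, G3, G7, G8 and G10. L6 had 5 of these partners and was linked to G4 in place of G7. None of the 3 was linked to another of the 3, at midpoint distances of 16.3 kb between L4 and L5, 35.0 kb between L5 and L6 and 51.3 kb between L4 and L6. L3, at 118313687 to 118322764, had 3 partners, which were G1, G8 and G10.

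Although 20 of 45 pairs within the gene span were linked, some of its anchors formed fully linked groups, which were found by a search for the largest such groups. G1, G3, G4, G7, G8 and G10 were each linked to every other, and L8 was linked to all 6 of them, so that these 7 anchors held all 21 possible links. Replacing G7 with L6, or G4 with L4 or L5, gave another fully linked group, and these 4 groups of 7 anchors were the largest in the region. Among the 10 busy anchors 39 of 45 pairs were linked (86.7%, 73.2 to 94.9%), which made up 65% of the 60 interactions. The busy anchors were chosen by their number of interactions in this same list, which bears on this share and its interval. The 6 unlinked pairs were the 3 among L4, L5 and L6, the pairs of G4 with L4 and L5, and the pair of L6 with G7. Counted over all 20 anchors, the region held 91 triangles, and 57.7% of the cases in which 2 anchors shared a partner were closed by a link.

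**Figure D3:**
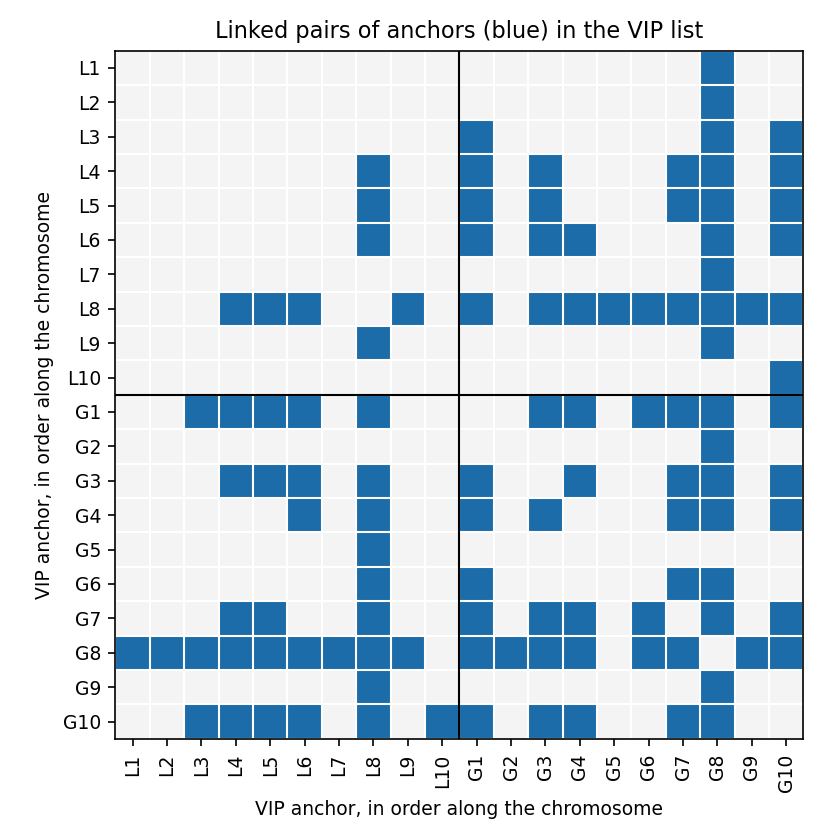
Pairs of the 20 VIP anchors of the region that are linked (blue) or not linked (grey), with anchors in order along the chromosome on both axes and black lines dividing the low side (L) from the gene span (G). The upper left block, low side with low side, holds links of L8 alone, while the columns of G8 and L8 are filled for 17 and 13 anchors.

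The interactions of the locus were longer by median than those of the whole VIP list. Their median distance was 293 kb (order-statistic interval 211 to 393 kb), with quartiles of 149 and 476 kb. The interval takes interactions as independent, which they are not. The whole VIP list had a median of 167 kb and quartiles of 52.5 and 365 kb. Of the 22 windows of 1 Mb with 40 or more VIP interactions by midpoint, 10 stood at or above the Galnt18 window in median distance, itself included. The shortest, 26.5 kb, joined G3 and G4, and the longest, 747 kb, joined G1 to an anchor beyond the region. Distances of 400 to 600 kb made up 30% of the locus and 12.7% of the list. Distances of up to 50 kb made up 10% of the locus and 23.9% of the list.

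Pairs of anchors were also counted by distance, whether linked or not. In the region 56 of 190 pairs were linked (29.5%, 23.1 to 36.5%), and over the VIP list 22.1% of 30488 pairs within 1 Mb were. At 400 to 600 kb the region had 16 of 46 pairs linked (34.8%, 21.4 to 50.2%), against 17.7% in the list. At 200 to 400 kb it had 19 of 54 (35.2%, 22.7 to 49.4%), against 24.9%. Below 50 kb it had 6 of 19 (31.6%, 12.6 to 56.6%), against 47.8%. The list values lie inside the intervals of the region in each distance class but that of 400 to 600 kb. The intervals take pairs as independent, which they are not. The region was chosen by its VIP count, which enters its linked shares, so nothing is read from these contrasts with the list.

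**Figure D4:**
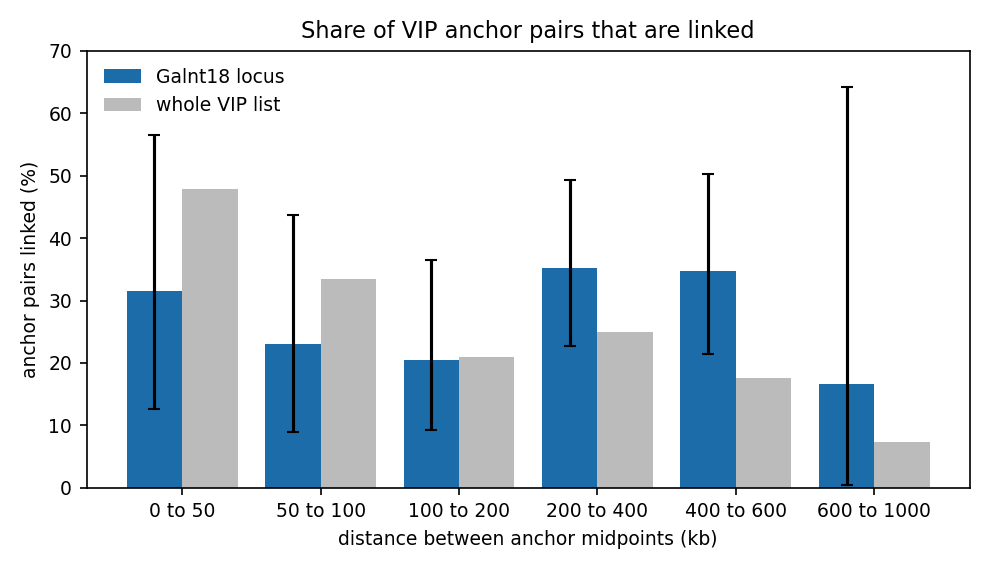
Percentage of pairs of VIP anchors that are linked, by distance between midpoints in kb, at the Galnt18 locus (blue, with exact 95% binomial intervals) and over the whole VIP list (grey). The locus stands at 35.2% and 34.8% in the classes between 200 and 600 kb, and the list stands at 24.9% and 17.7% there, after 47.8% below 50 kb. The choice of the region by its VIP count bears on the blue bars.

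Neighbouring anchors were seldom linked. Of the 19 pairs of neighbours in the region 5 were linked (26.3%, 9.15 to 51.2%), namely L8 with L9, G3 with G4, G6 with G7, G7 with G8 and G8 with G9. Over the VIP list 49.0% of 3442 neighbouring pairs up to the same midpoint distance of 131 kb were linked. The upper end of the interval for the region lies above this value, and the interval takes pairs as independent, which they are not.

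In the SST list the locus was empty both as contacts and as anchors. None of the 60 VIP interactions had a counterpart in SST, a share of up to 5% by the approximate floor, while 74.2% of all VIP interactions had no counterpart. Neither anchor overlapped an SST anchor for 58 of the 60 (96.7%, 88.5 to 99.6%), against 33.9% of the VIP list. Of the 20 anchors in the region 0 overlapped an SST anchor, or up to 15% by the same floor, while 56.5% of all VIP anchors overlapped none. Because the region was chosen as rich in VIP and poor in SST, nothing is read from these contrasts.

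The empty stretch in SST ran from 117956624 to 119321921, a length of 1365 kb. It reached 43.4 kb past the region on the low side and 222 kb past it on the high side. The bordering SST anchors were at 117938657 to 117956624 with 1 interaction and at 119321921 to 119328346 with 3. The 20 VIP anchors lay 267 to 657 kb from the nearest SST anchor, with a median of 456 kb. In the whole VIP list 22.8% of anchors lay at least 267 kb from an SST anchor.

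Such stretches were set beside each other over the genome. The SST anchors left 5822 stretches between neighbours, of which 392 were at least as long as that at Galnt18. Of these 392, 219 held no VIP interaction, and the median was 0. The stretch at Galnt18 held 57 VIP interactions between 21 anchors, and 1 stretch held more, a stretch of 9560 kb on chromosome 19 with 69. Per length it held 41.7 VIP interactions per Mb, the highest of the 21 stretches with 20 or more, the next having 24.8 per Mb. The choice of the locus for its VIP count bears on each of these ranks.

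**Figure D5:**
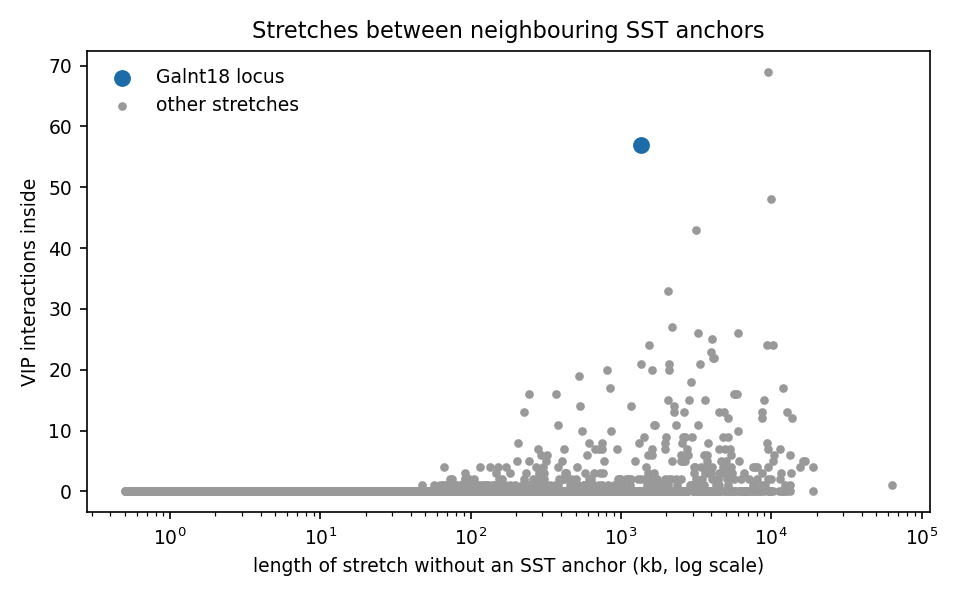
Each point is a stretch between neighbouring SST anchors, with its length in kb on a log axis and the number of VIP interactions that lie wholly inside it. The Galnt18 locus (blue) holds 57 at a length of 1365 kb, and of the 165 stretches of 1 to 2 Mb, itself included, 120 hold 0.

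The flanks, which the rule did not count, held few contacts in either list when interactions with both anchors in a flank were counted. In the 1 Mb below the region VIP had 4 interactions and SST had 1, and no contact was shared. In the 1 Mb above it VIP had 3 and SST had 9, and the 3 VIP interactions were all also listed in SST. The 4 VIP anchors of these interactions on the high side each overlapped an SST anchor, as did 2 of the 5 on the low side. On the high side the SST list thus held more interactions than the VIP list.

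The contacts that left the region show where it touches its surroundings. L8 was linked to an anchor at 117839229 to 117877017, 584 kb away, which had 4 other VIP interactions, all on the low side of the region, and overlapped no SST anchor. G8 was linked to an anchor at 119164300 to 119172063, 295 kb away, which had no other interaction; it was the first VIP anchor above the region, 64.3 kb past its edge. The first VIP anchor below the region, at 117942238 to 117956184, ended 43.8 kb short of its edge and had no link into it.

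Both G1 and G8 were linked to the anchor at 119364204 to 119389978, over 747 kb and 504 kb. It was the single partner of the locus that SST also listed. In VIP this anchor had 5 interactions, 2 with the locus and 3 with neighbours on the high side. The SST anchor overlapping it, at 119363695 to 119392703, had 4 interactions, 0 of them with the locus. The 3 VIP interactions with high-side neighbours, of 29.4, 36.8 and 101 kb, were all also listed in SST. At this anchor the lists thus shared 3 short contacts, and the VIP list held 2 long ones toward Galnt18 besides. The SST list held a further contact there, of 53.1 kb, that the VIP list did not.

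The locus was compared with 3 other 1 Mb windows that VIP fills, those called after Csmd1 (chromosome 8, 16 to 17 Mb), Zfp536 (chromosome 7, 38 to 39 Mb) and Sorcs3 (chromosome 19, 48 to 49 Mb). Counted by either anchor, these held 60, 46 and 61 VIP interactions, against 7, 5 and 0 in SST. They are a choice among such windows: another, on chromosome 4, held 69 VIP and 0 SST interactions and was not set beside them. The share of anchor pairs linked was 29.5% at Galnt18, 25% at Csmd1, 38.3% at Zfp536 and 50.8% at Sorcs3. This share counts links with both anchors inside, which were 56 of 60 interactions at Galnt18 but 30 of 60 at Csmd1. The 2 busiest anchors took part in 53.3% of interactions at Galnt18, 50% at Csmd1, 52.2% at Zfp536 and 44.3% at Sorcs3. The median distance was 293 kb at Galnt18, 369 kb at Csmd1, 366 kb at Zfp536 and 158 kb at Sorcs3. The Galnt18 locus lay within the range of the other 3 in share of pairs linked and in median distance, and its share for the 2 busiest anchors was the highest of the 4 by a small margin that was not tested.

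Over the genome, 25 of 242 windows of 1 Mb with 20 or more interactions (10.3%) drew at most 10% of them from SST, the Galnt18 window among them. Of the 22 windows with 40 or more VIP interactions by midpoint, 3 had no SST interaction, and the median SST count was 11.5 (0 to 84). In share of pairs linked, in interactions of the busiest anchor, in the share held by the 2 busiest anchors and in closed triangles, 7 of these 22 stood at or above the Galnt18 window, itself and ties included. In median distance 10 of the 22 did. No test of these ranks was made.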

How the data were processed

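Per the labels' protocols, INTACT-purified nuclei were crosslinked and chromatin was cut with MboI before H3K27ac HiChIP. HiC-Pro and build mm9 are named by the submitters' processing notes; the caller, its threshold and any pooling of replicates were not given in the sources used here. Each list as deposited holds 6 columns, the chromosome, start and end of both anchors, with no other unit. Starts may count from 0 or from 1.

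Distances were taken between anchor midpoints. An interaction was shared when both anchors overlapped those of an interaction in the other list by at least 1 bp. Anchors were named by a rule: those with 5 or more interactions, the lowest and highest, the bordering SST anchors, and the anchors of the shortest and longest interaction; others named were chosen after their values were seen. The members, lists and comparisons were chosen with earlier results of these data known. Alternatives covered placement, region edges, overlap, distance and merging of anchors. On 3000 simulated interactions, 800 of 800 planted shared ones were found with 0 false calls. The simulated interactions lay far apart from each other, so this checks the overlap step alone and gives no error rate for these lists. Gene order came from RefSeq GRCm38.p6; Galnt18 had no entry in the promoter table. Tools were networkx 3.6.1, scipy 1.17.1, numpy 2.4.6, pandas 2.3.3 and matplotlib 3.10.9 under Python 3.11.15. Each list belongs to the sample labelled replicate 1 of its cell type, and no separate list for replicate 2 was used here.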

Additional observations from a re-analysis of the deposited data

How the results depend on the processing

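The VIP count of 60 was 56 with both anchors inside the region, 59 by midpoint, 55 over the gene span and 67 with the region widened by 500 kb on each side; it was 20 with interactions of up to 200 kb, as longer ones are left out by construction. SST stayed at 0 with both anchors inside, over the gene span and with interactions of up to 200 kb, which follows from its 0 in the region. By midpoint SST also had 0, and the widened region takes in 11 SST interactions of the flanks. No VIP interaction or anchor of the region gained an SST counterpart with identical anchors, with anchors within 10 kb or with 50% overlap. This outcome was fixed in advance and adds no support. Identical anchors and 50% overlap are stricter than 1 bp, and each region anchor lay at least 267 kb from an SST anchor. The median distance was 84.4 kb with interactions of up to 200 kb, again by construction, and 283 kb with both anchors inside the region. When anchors within 5 kb were merged, G7 to G10 became a single anchor of 101 kb with 16 interactions, L8 had 10 and G1 had 9. After this merging 36 interactions remained between 16 region anchors and outside partners, and 26.7% of pairs were linked. Within 500 kb 28.3% of pairs were linked. No paired analysis was possible because the lists carry no replicate numbers, and for the same reason leaving out replicates was not an option. Read depth is not in the files, and its part in the empty SST region was not tested.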

Other observations

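Followed along shared anchors, the VIP interactions of the locus belonged to a connected set of 68 interactions between 31 anchors, which ran over 2593 kb from 116893416 to 119486298. Of the 734 such sets in the VIP list, 11 held at least as many interactions, itself included, and the median set held 3.5. Without the 4 interactions that leave the region, the 20 anchors of the region formed a set by themselves.

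The reverse case, a stretch without VIP anchors that held 20 or more SST interactions, was found 35 times among 4830 stretches, and the highest count was 94.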
